A study of Drosophila melanogaster with 2 samples.

Results

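The genes described here are the nuclear genes for mitochondrial ribosomal proteins of Drosophila melanogaster, taken as every protein-coding gene whose Ensembl symbol begins with mRpL (large subunit) or mRpS (small subunit). The rule found 73 genes, 47 mRpL and 26 mRpS, among 13945 protein-coding genes on the 6 chromosomes analysed. Occupancy by Oli, a basic helix-loop-helix (bHLH) transcription factor of the Olig family, was measured by ChIP-seq, the sequencing of DNA that is precipitated with a chromatin protein, in whole embryos aged 6 to 18 h, both sexes pooled. The embryos came from a transgenic line that stably expresses Oli fused at its C terminus to GFP, a fluorescent protein that serves as the tag, and an antibody against GFP was used. There is 1 group, with 2 biological replicates, and no second genotype, treatment or time. The precipitated protein is the product of a transgene, and a whole embryo mixes all cell types, so the cells that carry a peak cannot be told from these data.

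Mitochondria keep their own ribosome, which translates the few proteins encoded by mitochondrial DNA, core subunits of the respiratory chain among them. Its RNA is transcribed inside the organelle, but its proteins are encoded in the nucleus, made in the cytosol and imported, so that many scattered nuclear genes have to be expressed for each ribosome. The small subunit holds the decoding site, and the large subunit joins amino acids and holds the exit tunnel for the growing chain. In flies many housekeeping genes stand head to head with a neighbour, so that a single stretch of DNA serves both as a divergent promoter. bHLH proteins bind the E-box, whose letters are CANNTG, and the central letters differ between members of the family.

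The peaks came in 4 lists, 1 for each replicate and 1 for the pooled replicates, with 30000 peaks each, and the list of 6496 peaks that passed the irreproducible discovery rate (IDR), a measure of how well the order of peaks repeats between replicates. A gene was counted when the summit of a peak, its highest point, lay within 500 bp of an annotated start of the gene. The signal of a peak is the authors' own value for its height, used here to rank peaks within a list and never to compare sizes between lists. Each IDR peak named here stood in the pooled list with the same signal and rank. The sources used here give no read numbers, so the depth is unknown, and a gene without a peak is one at which no peak was listed.

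To show what the DNA under these summits looks like, the 101 bases centred on the summit are given for 6 peaks, on the forward strand of the dm6 assembly (release 6, sequence from RefSeq). All were taken from the 20 peaks whose stretch could be printed, which leaves out higher peaks such as those of mRpL41 and mRpL23. Among these 20, the first 4 have the highest signals. The peak of mRpL12 is the highest of the 20 with an E-box of the class CATATG, which Olig proteins of vertebrates select in vitro. That of mRpS7 is the highest of the 20 with TATAAA, the letters of a TATA box. Capitals mark an E-box in mRpS23 and mRpL12 and TATAAA, read on the reverse strand, in mRpS7. These letters were matched without regard to their distance from a start.
mRpS10, chr3R:15229477-15229577: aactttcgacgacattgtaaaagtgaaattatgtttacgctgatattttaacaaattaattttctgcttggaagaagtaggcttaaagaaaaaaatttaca
mRpS23, chr2L:13835405-13835505: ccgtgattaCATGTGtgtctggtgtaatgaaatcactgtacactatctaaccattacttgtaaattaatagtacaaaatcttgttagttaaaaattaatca
mRpL20, chr3L:13018096-13018196: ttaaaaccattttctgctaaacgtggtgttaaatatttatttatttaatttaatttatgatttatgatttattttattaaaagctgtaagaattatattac
mRpL24, chr2L:4945445-4945545: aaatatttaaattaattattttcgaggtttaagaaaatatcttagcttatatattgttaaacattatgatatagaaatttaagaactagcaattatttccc
mRpL12, chr3L:8956719-8956819: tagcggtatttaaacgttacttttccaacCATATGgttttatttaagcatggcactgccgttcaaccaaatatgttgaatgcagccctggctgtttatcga
mRpS7, chr2L:10386443-10386543: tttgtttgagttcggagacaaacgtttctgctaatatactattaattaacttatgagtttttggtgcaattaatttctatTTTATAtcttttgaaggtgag
The stretches of mRpS10, mRpL20, mRpL24 and mRpS7 hold no E-box of any class. GC content ran from 16.8% at mRpL20 to 39.6% at mRpL12.

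Each of the 73 genes was then sorted by the lists that held a peak at one of its starts. The IDR list had a summit at 25 of them (34.2%), against 2628 of all 13945 coding genes (18.8%). The pooled list, which is longer, had one at 38 (52.1%), against 39.8% of all coding genes. Replicate 1 gave 39 genes (53.4%), against 39.3%, and replicate 2 gave 37 genes (50.7%), against 42.6%. When each replicate was held to its strongest 6496 peaks, replicate 1 gave 23 genes (31.5%), against 18.2%, and replicate 2 gave 24 genes (32.9%), against 19.4%. Both whole replicate lists had a summit at 33 genes (45.2%), against 33.2%. The share of mitochondrial ribosomal protein genes was thus above that of all coding genes in every list. The excess was largest, relative to the background, in the IDR list and in the strongest peaks of each replicate.

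The remaining genes fell into 3 classes, for which the shares of all coding genes are not given. Over all 13945 coding genes, the pooled list had a summit at 5556 and the IDR list at 2628. The sizes of the classes are therefore not read as a trait of these genes. A pooled peak that was not in the IDR list was present at 13 genes, and both replicates had a summit at 8 of these. The pooled ranks at the 13 genes ran from 6648 to 27323, all past the length of the IDR list (6496 peaks). They were mRpL17, mRpL18, mRpL19, mRpL28, mRpL32, mRpL43, mRpL48, mRpL50, mRpL51, mRpL54, mRpS14, mRpS16 and mRpS17. A summit in the replicate lists but in neither joint list was present at 5 genes, mRpL9, mRpL42, mRpL55, mRpS21 and mRpS28. None of the 4 lists had a summit at 30 genes, 22 of the large and 8 of the small subunit. These were mRpL1, mRpL2, mRpL3, mRpL10, mRpL11, mRpL13, mRpL14, mRpL15, mRpL16, mRpL22, mRpL30, mRpL33, mRpL36, mRpL38, mRpL39, mRpL40, mRpL45, mRpL46, mRpL47, mRpL49, mRpL52, mRpL53, mRpS9, mRpS11, mRpS18A, mRpS18C, mRpS30, mRpS33, mRpS34 and mRpS35. The IDR summit nearest to these 30 genes was 592 to 32820 bp away, with a median of 7109 bp.

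Peaks were found for both subunits. In the IDR list they stood at 13 of 26 small and 12 of 47 large subunit genes (25.5%), against 18.8% of all coding genes. In the pooled list the counts were 16 of 26 and 22 of 47, against 39.8% of all coding genes. The difference between the subunits was not tested. A neighbouring coding gene that starts head to head within 500 bp, an arrangement taken up further on, was found for 19 of 26 small and 34 of 47 large subunit genes.

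Of the 25 peaks 7 stood among the first 500 of the IDR list, 28.0% of the member peaks, against 13.0% of the 2146 IDR peaks at starts of coding genes. The highest lay at mRpS10, whose product is a small subunit protein with a bacterial counterpart, and the peak spanned 15229335 to 15229732 on 3R. Its signal was 4773 in the IDR list (rank 7), 2078 in replicate 1 (rank 14) and 2705 in replicate 2 (rank 4). The summit lay 138 bp upstream of mRpS10 and 119 bp upstream of Art3, the gene of an arginine methyltransferase on the other strand, so that it was slightly nearer to the neighbour.

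A peak of almost the same height lay at mRpL41, a large subunit gene on 2R with no divergent coding partner, and spanned 15217575 to 15217940. It had a signal of 4767 in the IDR list (rank 8), 2067 in replicate 1 (rank 15) and 2702 in replicate 2 (rank 5), with its summit 137 bp upstream of the start. The peaks at mRpS10 and mRpL41 were neighbours in rank in all of these lists.

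The next pair of peaks stood at mRpS23 and mRpL23. At mRpS23, a small subunit gene, the peak (2L, 13835286 to 13835646) had a signal of 3741 in the IDR list (rank 21), 1721 in replicate 1 (rank 27) and 2039 in replicate 2 (rank 15). Its summit lay 383 bp upstream of mRpS23 but 109 bp upstream of CenG1A, which encodes a GTPase-activating protein of the centaurin family. The peak at mRpL23 (3L, 2373417 to 2373790), whose product in bacteria sits at the mouth of the exit tunnel, had a signal of 2563 in the IDR list (rank 61), 1176 in replicate 1 (rank 107) and 1381 in replicate 2 (rank 51). Its summit was 64 bp downstream of the nearest annotated start of mRpL23, in the 5′ UTR, and the closest start of its divergent partner CG9004 lay 24 bp from a start of mRpL23.

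Signals above 1000 in the IDR list were also found at mRpL20, mRpL24 and mRpS2. At mRpL20, whose bacterial counterpart binds early in the assembly of the large subunit, the signal was 1269 in the IDR list (rank 349), 582.8 in replicate 1 (rank 479) and 704.3 in replicate 2 (rank 251). The peak (3L, 13017993 to 13018302) lay between mRpL20 and Icmt, the gene of the methyltransferase that caps prenylated proteins, 279 bp from mRpL20 and 120 bp from Icmt. At mRpL24, also the counterpart of an early assembly protein, the signal was 1195 in the IDR list (rank 395), 527.2 in replicate 1 (rank 570) and 674.3 in replicate 2 (rank 273). That peak (2L, 4945322 to 4945606) lay 134 bp from mRpL24 and 84 bp from betaggt-I, which encodes a subunit of geranylgeranyl transferase. At mRpS2, a small subunit gene, the signal was 1119 in the IDR list (rank 449), 482.7 in replicate 1 (rank 672) and 624.9 in replicate 2 (rank 313). That peak (2L, 4850409 to 4850704) lay 135 bp from mRpS2 and 87 bp from Mon1, a gene of the exchange factor for the late endosomal GTPase Rab7. In each of these 7 peaks the rank was better in replicate 2 than in replicate 1.

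The 5 peaks that came next had signals between 398.6 and 546.4 and lay between the starts of divergent genes. At mRpS6 (3L, 4364364 to 4364541) the signal was 546.4 in the IDR list (rank 1459), 266.7 in replicate 1 (rank 1710) and 281.2 in replicate 2 (rank 1246). Its partner is Cip4, which encodes a membrane-bending F-BAR protein. At mRpS7 (2L, 10386474 to 10386583) it was 535 in the IDR list (rank 1511), 295.8 in replicate 1 (rank 1470) and 248 in replicate 2 (rank 1512). Its partner is Cdk1, the kinase gene that drives entry into mitosis, and the starts of mRpS7 and Cdk1 were 400 bp apart. At mRpL37 (3R, 10784051 to 10784466) the signal was 407.8 in the IDR list (rank 2183), 226.5 in replicate 1 (rank 2141) and 176 in replicate 2 (rank 2379). At mRpS26 (3L, 18106127 to 18106542) it was 405.1 in the IDR list (rank 2197), 238.2 in replicate 1 (rank 1996) and 168.6 in replicate 2 (rank 2497), with CG13698 as the partner. At mRpL34 (2R, 16098562 to 16098977) it was 398.6 in the IDR list (rank 2238), 230 in replicate 1 (rank 2099) and 168.2 in replicate 2 (rank 2508), with the dystroglycan gene Dg as the partner. All 5 peaks thus stood in the same stretch of the order, between rank 1246 and rank 2508, in every one of these lists.

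The other 13 peaks had signals between 156.3 and 333.6. They stood at mRpS24 (partner Apc2, a Wnt pathway gene), mRpS29, mRpS18B (partner Kua), mRpL44 (partner Snr1, a Brahma complex gene), mRpS22 (partner CG5003), mRpL12, mRpL27 (partner CG15435), mRpL4, mRpS25, mRpL35 (partner Mitofilin), mRpL21 (partner rept), mRpS5 and mRpS31 (partner hzg). The products of mRpS22, mRpS29 and mRpS31 have no counterpart in the bacterial ribosome, and that of mRpL12 forms the stalk that recruits translation factors. Mitofilin encodes a protein that shapes the inner mitochondrial membrane, and its promoter, 192 bp from start to start, is shared with mRpL35. Over all 25 peaks the median signal was 333.6, against 353.3 for the 2146 IDR peaks at coding starts, and the median rank was 2809, against 2627.5. A larger share of the member peaks thus stood among the 500 highest, while their median signal was close to that of peaks at coding starts in general.

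**Figure D1:**
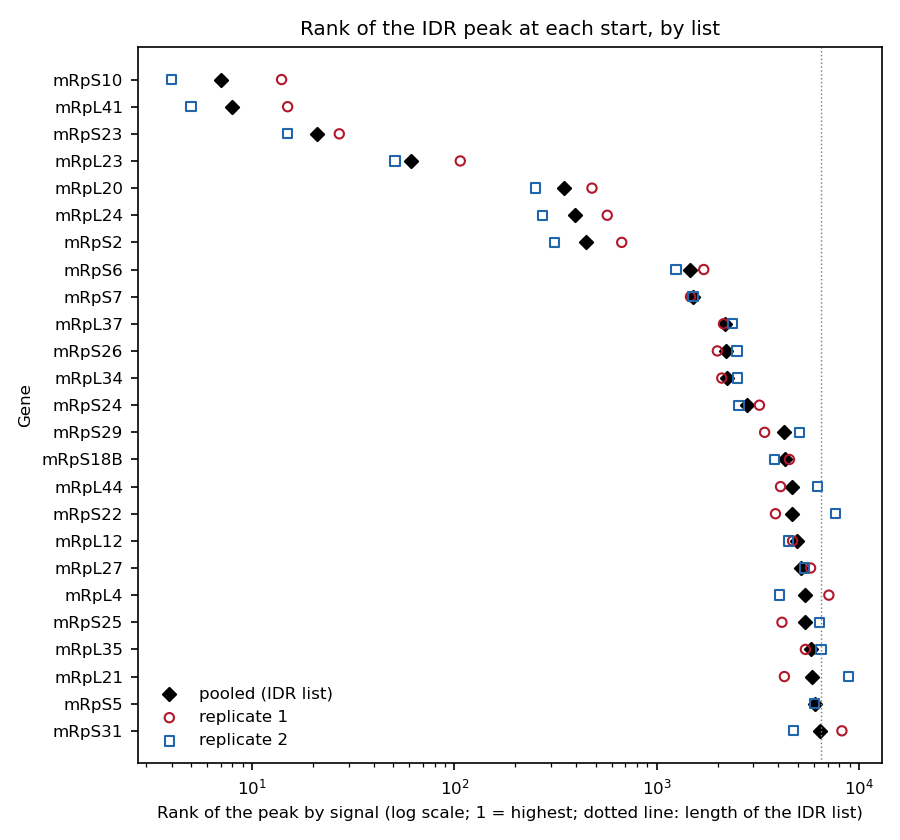
Rank by signal (log axis, 1 is the highest) of the IDR peak at each of 25 mitochondrial ribosomal protein genes, in order of signal from the top, in the pooled order that the IDR list keeps (diamonds), in replicate 1 (circles) and in replicate 2 (squares), with rank 6496 as a dotted line. The 7 highest peaks have ranks up to 672 in these lists, and mRpS5 has no circle because no peak of replicate 1 overlapped it.

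The IDR list was made from both replicates, so the values in each replicate are not independent of the choice of these peaks. Ranks in the IDR and the pooled list were equal down to rank 6421, that of mRpS31. Down to there the IDR list was thus the top of the pooled order, with no higher pooled peak left out. A peak of replicate 1 and one of replicate 2 lay under 24 of the 25, and for 20 these were among the strongest 6496 of each replicate. The exception was mRpS5, whose IDR peak in its intron, 463 bp downstream of the nearest start, overlapped a peak of replicate 2 (rank 6045, signal 76.45) and none of replicate 1. The replicates' summits were a median of 15 bp (replicate 1) and 11 bp (replicate 2) from the IDR summit, and at most 69 and 157 bp away. Where the replicates differed in rank, 10 peaks ranked higher in replicate 1 and 14 in replicate 2. At mRpS29, which encodes a GTP-binding small subunit protein, the overlapping peak had rank 3419 in replicate 1 and 5080 in replicate 2. The summit of that replicate 2 peak lay 157 bp from the IDR summit and just over 500 bp upstream of the start, outside the window. The replicate 2 summit inside the window belonged to another peak, at -89 bp (rank 10233, signal 45.58).

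Most summits lay upstream of the genes and away from their starts. Upstream summits were found at 23 of 25 members (92.0%), against 89.2% of all coding genes with an IDR summit, and 16 of the 25 lay 100 to 300 bp upstream. The median distance was -155 bp, where a negative value is upstream, against -164 bp over all coding genes with an IDR summit. The distances ran from -383 bp at mRpS23 to 463 bp at mRpS5. The annotation at the summit was intergenic for 22 peaks, a 5′ UTR for mRpL23 and mRpL27 (there the 5′ UTR of its neighbour CG15435), and an intron for mRpS5. Only mRpL12 had its summit within 50 bp of a start, 22 bp upstream. In position, then, the summits at these genes were close to those of coding genes at large.

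The rule's window left few genes near its edge. Just inside were mRpS5 at 463 bp, mRpS23 at 383 bp and mRpS25 at 355 bp. Just outside were mRpL33, with an IDR summit 592 bp upstream (rank 3948, signal 249.5), mRpL13, with one 1248 bp downstream (rank 6118, signal 164.5), and mRpL22, with one 1684 bp upstream (rank 3043, signal 311.1).

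Head-to-head neighbours were common among these genes. A start of another coding gene on the opposite strand, upstream and within 500 bp (or overlapping by at most 100 bp), was found for 53 of 73 members (72.6%), against 3839 of 13945 coding genes (27.5%). The median distance between the paired starts was 264 bp for members and 242 bp for all coding genes with a partner. Divergent members had an IDR peak in 19 of 53 cases (35.8%), against 34.3% of all divergent coding genes. Members without a partner had one in 6 of 20 cases (exact 95% interval 11.9% to 54.3%), against 13.0% of all coding genes without a partner. Within the divergent class, which holds most of the genes, the share with a peak was therefore near its background.

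**Figure D2:**
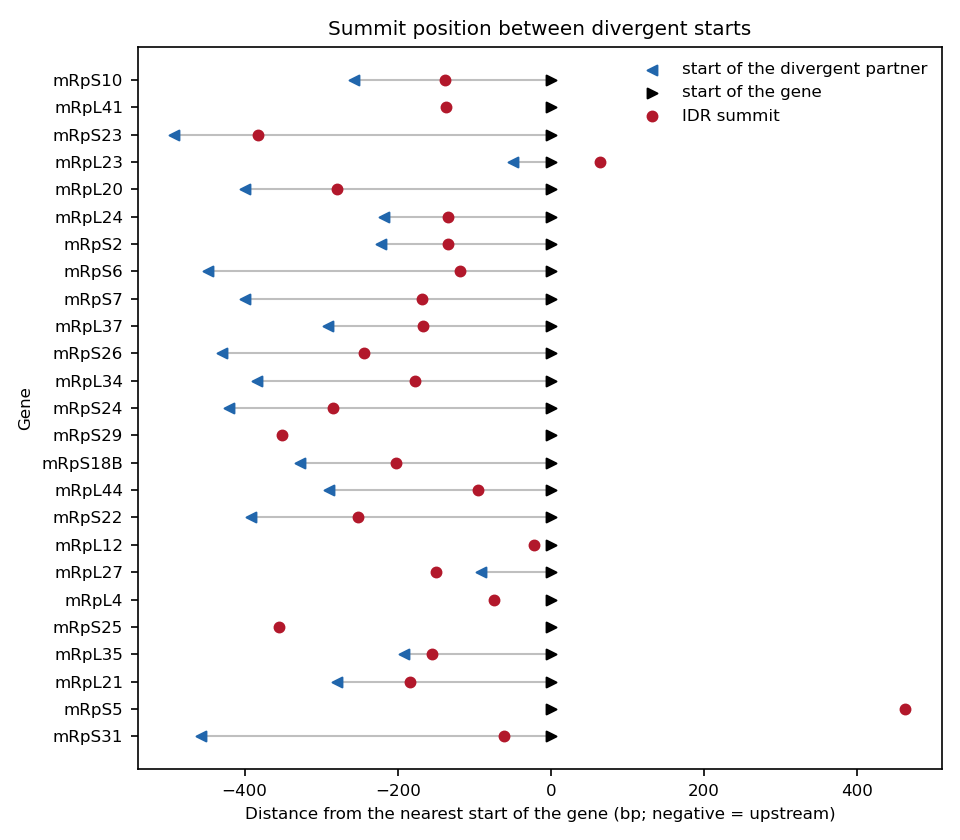
IDR summits at the 25 mitochondrial ribosomal protein genes, in order of signal from the top, by distance from the start of the gene nearest to the summit (bp, negative is upstream), with that start in black and the start of the divergent coding partner in blue. Of the 19 divergent genes 17 have the summit between the starts, and mRpL23, which has several annotated starts, and mRpL27 have it outside.

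In the shared promoters of members with a peak, the summit usually stood between the starts and somewhat closer to the neighbour. Of the 19 divergent members with a peak, 17 had the summit between the starts. The summit was nearer to the partner's start in 13 of the 19 and nearer to the member's own in 6. Over the 17 summits between starts, the median summit stood at 0.608 of the way from the member to the partner. Such a peak lies at the starts of both genes, and the list alone does not tell them apart. Those nearest to a partner included mRpL35, whose summit was 37 bp from Mitofilin and 155 bp from mRpL35. Those nearest to the member's own start included mRpS31, with the summit 61 bp from mRpS31 and 396 bp from hzg. The place of the summit between paired starts is not given for all divergent coding genes. The lean towards the neighbour was not tested and is therefore not read as a trait of these genes.

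Divergent members were also sorted by the distance between the paired starts, with a split at 150 bp that was chosen after the values had been seen. At members whose starts lay at most 150 bp from the partner's, or overlapped, an IDR peak was present in 2 of 20, against 23.6% of all coding genes so arranged. At members with a wider gap a peak was present in 17 of 33 (51.5%), against 39.6% of all coding genes so arranged. The genes with a peak over a short gap were mRpL23 and mRpL27, and in both the summit lay outside the space between the starts. In bins of 100 bp the shares of members were 11.1% of 18 (exact 95% interval 1.38% to 34.7%) up to 100 bp, 1 of 4 from 101 to 200 bp, 54.5% of 11 from 201 to 300 bp (23.4% to 83.3%), 62.5% of 8 from 301 to 400 bp and 41.7% of 12 from 401 to 500 bp. Over all coding genes the shares in the same bins were 23.8%, 24%, 40.3%, 45.7% and 37.2%, which rank the bins in the same order. The intervals cover counting error only, and those of the members are wide enough to hold the value of all coding genes in each of these bins.

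**Figure D3:**
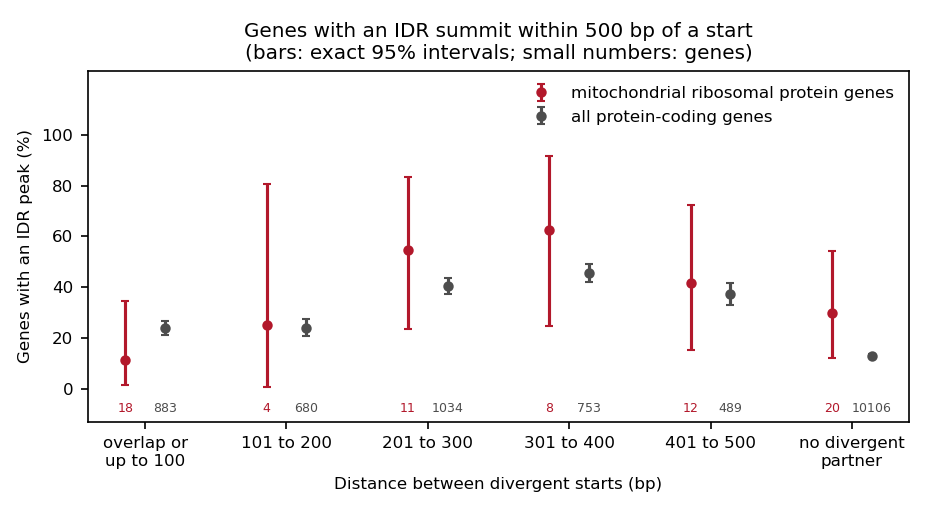
Share of genes with an IDR summit within 500 bp of a start (percent), by the distance between divergent starts, for mitochondrial ribosomal protein genes (left point of each pair) and all protein-coding genes (right point), with exact 95% intervals and the number of genes below. The member shares are 11.1% where starts overlap or are up to 100 bp apart and 62.5% at 301 to 400 bp.

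By chromosome, an IDR peak was present at 7 of 12 members on 2L (58.3%), against 18.5% of all coding genes there, and at 8 of 17 on 3L (47.1%), against 20.4%. On 3R it was present at 6 of 21 (28.6%), against 19.5%, and on 2R at 3 of 12, against 16.8%. On X it was present at 1 of 11 members (9.09%), against 19.4% of all coding genes, and the gene was mRpS25. The X chromosome was thus the one arm with members on which their share was below that of coding genes in general, although 6 of its 11 members had a divergent partner more than 150 bp away. No difference between chromosomes was tested.

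The summits lay in a dip of GC content. In the 101 bp around the summit GC averaged 27.7% ± 8.0 (SD, n = 25 peaks), against 31.1% ± 9.19 at the 2146 summits at coding starts. In windows 500 bp to the left and right it averaged 51% and 52.3% around member summits, against 45.5% and 45.6% around the 2146. The summit was poorer in GC than both of its flanks at 24 of 25 member peaks (96.0%), against 74.2% of the peaks at coding starts. It ranged from 12.9% GC at mRpL44 to 47.5% at mRpL4. The promoters themselves, from 250 bp before to 50 bp after the outermost start, averaged 33.6% ± 4.46 GC for the 25 members with a peak and 37.2% ± 6.62 for the 48 without one, against 39.1% ± 7.73 over all coding genes. Mean promoter GC content was thus lower at members with a peak, with overlapping spreads. Members with a divergent gap of at most 150 bp fell mostly in the group without a peak (2 of 20 had one). At such gaps the promoter stretch can reach past the start of the neighbour. The part of base composition in the result was not tested.

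**Figure D4:**
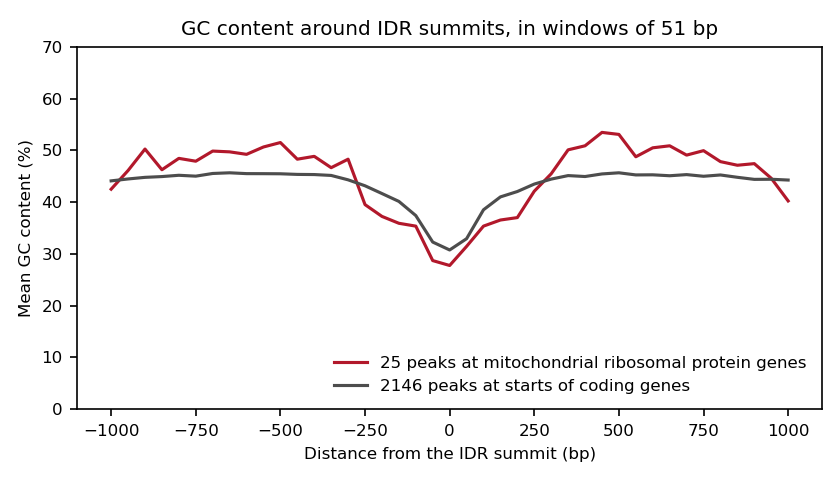
Mean GC content (percent) in windows of 51 bp by distance from the IDR summit (bp), for the 25 peaks at mitochondrial ribosomal protein genes and the 2146 peaks at starts of coding genes. Both curves dip at the summit.

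In the IDR list, E-boxes within 50 bp were about as frequent under the member summits as under other summits at coding starts. Any E-box (CANNTG, both strands) lay within 50 bp of 9 of 25 member summits (36.0%), against 31.7% of summits at coding starts. The more specific classes are included in that count. CATATG lay at 2, those of mRpL34 and mRpL12, against 3.49%. CACGTG lay at 1, mRpL27, against 0.699%, and CAGCTG at none of the 25, against 2.98% of the 2146. Among elements of core promoters, TATAAA lay at 7 (28.0%), against 27.3%, and GAGAG at 1, mRpS24, against 7.50%. TATCGATA, the palindrome known as the DNA replication-related element (DRE), GGTCACACT, the core of Ohler motif 1, and GCGCATGC were at none of the 25 summits, against 1.49%, 0.652% and 0.0466%. All were searched on both strands.

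The promoters of these genes nevertheless held one E-box class often, at a place other than the summit. CAGCTG was present in the promoters of 40 of 73 members (54.8%), against 2467 of 13945 coding genes (17.7%). By arrangement, it was present at 29 of 53 divergent members, against 962 of 3839 divergent coding genes. Without a partner it was present at 11 of 20 members, against 1505 of 10106 coding genes. The DRE was present in 15 of all 73 members (20.5%), against 9.37%, and GAGAG in 12 (16.4%), against 29.8%. TATAAA was present in 34 (46.6%), against 45.9%. The nearest CAGCTG was centred within 50 bp of the outermost start in 35 of the 40 members (87.5%), with a median of 7 bp downstream, against 54.2% of the coding genes that hold one, with a median of 42 bp upstream (-42 bp). The place of CAGCTG was examined after its count had been seen.

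The starts of 6 genes are printed to show where these letters stand, as 70 bases on the strand of the gene, 40 before and 30 from the outermost start onwards, with CAGCTG in capitals. The first 3 belong to the members with the highest IDR signals among those that hold CAGCTG and could be printed, and the last 3 to members with no peak in any of the 4 lists. Coordinates are those of dm6, and mRpL24, mRpS2 and mRpL33 are on the reverse strand.
mRpL24, chr2L:4945332-4945401: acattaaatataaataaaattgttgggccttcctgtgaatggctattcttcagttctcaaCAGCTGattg
mRpS2, chr2L:4850390-4850459: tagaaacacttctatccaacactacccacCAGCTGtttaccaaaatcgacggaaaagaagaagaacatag
mRpS6, chr3L:4364510-4364579: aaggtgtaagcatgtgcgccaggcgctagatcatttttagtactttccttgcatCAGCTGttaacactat
mRpL11, chr3R:14511798-14511867: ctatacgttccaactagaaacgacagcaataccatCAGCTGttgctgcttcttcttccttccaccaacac
mRpL2, chr3L:11120807-11120876: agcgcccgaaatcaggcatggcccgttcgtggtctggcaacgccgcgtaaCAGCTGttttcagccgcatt
mRpL33, chrX:4322202-4322271: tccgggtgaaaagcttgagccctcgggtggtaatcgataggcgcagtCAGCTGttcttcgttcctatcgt
The centre of CAGCTG lay 23 bp downstream of the start at mRpL24, 8 bp upstream at mRpS2 (-8 bp), 17 bp downstream at mRpS6, 2 bp upstream at mRpL11 (-2 bp), 13 bp downstream at mRpL2 and 10 bp downstream at mRpL33.

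The genes were then sorted by CAGCTG in the promoter and by an IDR peak. A peak was present at 10 of 40 members with CAGCTG in the promoter, against 24.1% of all coding genes with it. It was present at 15 of 33 members without CAGCTG (45.5%), against 17.7% of all coding genes without it. Divergent members had a peak in 8 of 29 cases with CAGCTG, against 36.5% of all divergent coding genes with it, and in 11 of 24 without, against 33.5%. Members with no partner had one in 2 of 11 cases with CAGCTG, against 16.1% of all such coding genes, and in 4 of 9 without, against 12.4%. In both arrangements the share was lower with CAGCTG among the members and slightly higher with it among all coding genes. Divergent members with CAGCTG more often had a gap of at most 150 bp than those without it. At such gaps 2 of 20 members had a peak, and the contrasts above were not split by gap. None of them was tested. At the 10 members with both a peak and CAGCTG, the letters lay 100 to 364 bp from the summit, with a median of 144.5 bp. The DRE was held by 7 of 25 members with a peak (28.0%) and 8 of 48 without (16.7%).

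**Figure D5:**
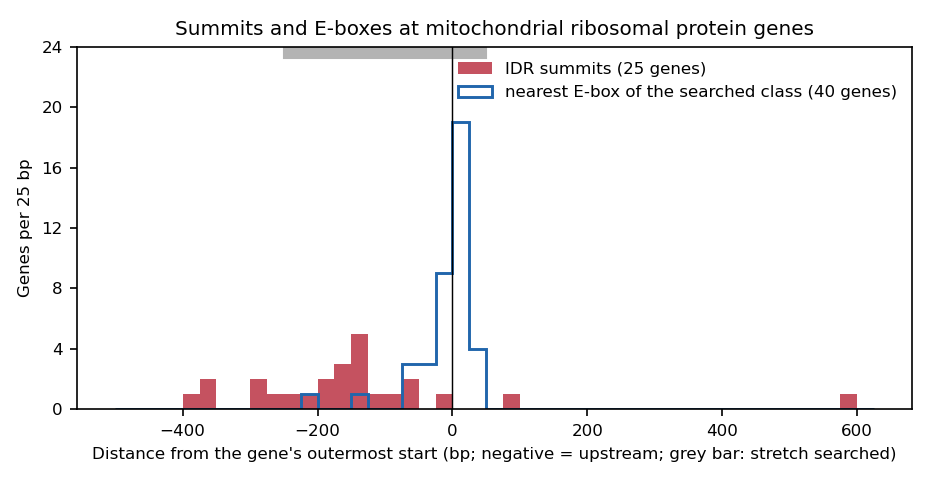
Distances from the outermost start of the gene (bp, negative is upstream) of the IDR summits at 25 mitochondrial ribosomal protein genes (filled) and of the CAGCTG nearest to the start in the 40 promoters that hold it (outline), in bins of 25 bp; the grey bar marks the stretch searched. The summits lie mostly 100 to 300 bp upstream and the E-boxes within 50 bp of the start.

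Other nuclear genes that serve mitochondrial gene expression were counted by the same rule. The mitochondrial ribosomal protein genes had an IDR peak in 34.2% of cases, against 9 of these 42 genes (21.4%) and 18.8% of all coding genes. Genes for the upkeep of mitochondrial DNA and RNA had a peak in 5 of 16 cases, led by PNPase, an RNA-degrading enzyme, with a signal of 4485 (rank 13), and the RNA-binding protein gene SLIRP2, with 2494 (rank 68). The other 3 were SLIRP1 (984.9), the single-strand binding protein gene mtSSB (470.9) and mTerf5 (200.4). Genes of mitochondrial tRNA synthetases had a peak in 3 of 15 cases, ProRS-m, SerRS-m and ArgRS-m, with signals between 168.5 and 182.7. Translation factors had one in 1 of 9, the elongation factor gene mEFTu1 (226.9). Neither of the other small ribosomal subunit genes, tko and bonsai, which carry names outside the rule, had a peak in the IDR or the pooled list.

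Set beside 2 gene families taken by symbol after earlier results were known, the mitochondrial ribosomal protein genes held an intermediate place. They had an IDR peak in 34.2% of cases, against 72.1% of 86 cytoplasmic ribosomal protein genes and 15.1% of 86 nuclear genes of the respiratory chain. Their summits stood farther from the start, at a median of -155 bp and with 1 of 25 within 50 bp, against a median of -39 bp with 35 of 62 (56.5%) within 50 bp at cytoplasmic ribosomal protein genes, and -87 bp at respiratory chain genes. Among divergent genes the shares with a peak were 35.8% for mitochondrial ribosomal protein genes, 88.2% for cytoplasmic ones and 33.3% for respiratory chain genes. Among genes without a partner they were 6 of 20, 61.5% of 52 and 0 of 47, in the same order. The median signals of the peaks were 333.6, 361.1 and 310.2. These differences between families were not tested.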

How the data were processed

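Per the labels and the accompanying file notes, chromatin sheared to 200 to 800 bp from 2 biological replicates gave 1 peak list each, and the authors deposited these with a pooled and an IDR-thresholded list, all on dm6 and drawn from the same control. Values used were the deposited signal of each peak, with no further scaling stated, and its deposited −log10 q-value, which ran from 2.71 to 3.73 at member peaks, was at its maximum in 12 of 25 and served for nothing else. Labels and notes name no aligner or caller (not given in the sources used here). Age came from the source description, since the age entry is garbled.

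Gene starts and symbols were those of Ensembl release 115 (BDGP6 annotation 54), with bases read from RefSeq's release 6 genome. Coordinates count from 1. A gene was called when a summit lay within 500 bp of any annotated start. Promoters ran from 250 bp before to 50 bp after the outermost start, and summit windows had 101 bp. Of the 25 summit stretches, 3 on 2R and 2 with over 30 exonic bases were not considered for printing. Counts stand beside those of all coding genes, with no test of any list, because there is 1 group and because the members and lists were chosen with earlier results of these data known. The count script was tested on simulated data. All members with an IDR peak are named, the 12 highest with values per list, as are the members in none of the lists, those nearest to the edge of the window, the divergent partners, of which 1 is not reported here, and the listed mitochondrial genes with a peak. Of that list 1 symbol was not in the annotation. Tools were Python 3.11.15, scipy 1.17.1, pandas 2.3.3, numpy 2.4.6 and, for plots, matplotlib 3.10.9. Alternatives were narrower and wider windows, overlap in place of the summit, the outermost start alone, and the strongest 3248 peaks of the IDR list. Others were each replicate alone, other definitions of a partner and other windows for GC content and E-boxes.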

Additional observations from a re-analysis of the deposited data

How the results depend on the processing

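Members with an IDR peak numbered 25, and 23 to 24 from the strongest peaks of 1 replicate alone, 26 within 1000 bp or by overlap, 24 by the outermost start, but 16 within 200 bp (21.9%, against 11.6% of all coding genes) and 13 in the stronger 3248 peaks of the IDR list (17.8%, against 11.6%). With those stronger peaks the count was 12 in place of 19 among the 53 divergent members. Among the 20 members without a partner it was 1 in place of 6. It was 1 in place of 2 among the 20 members with a gap up to 150 bp, and 11 in place of 17 among the 33 with a wider gap. Among the 42 other mitochondrial gene expression genes it was 4 in place of 9. Within 200 bp members without a partner numbered 3, those with a wider gap 11 and the other genes 5. With a partner allowed up to 1000 bp away, which also changes how many members lack one, 2 members without one had a peak. Shares of all coding genes under these alternatives are not given for the splits by arrangement and gap. Whether the higher share at members without a partner holds there is thus not shown. In single replicates the counts were 19 to 19 divergent, 4 to 5 without a partner, 2 to 3 with a short and 16 to 17 with a wider gap, and 8 to 11 of the other genes. The median distance was -146.5 to -180 bp and GC content 27.5% to 28.1%, or 30.7% with 100 bp on either side. The alternatives to the split at 150 bp were added after the data had been seen. The causes were not tested, other than that narrower windows and shorter lists hold fewer peaks. Unknown depth leaves no limit of detection at the 30 members without a peak. No paired analysis was possible because the samples form 1 group.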

Other observations

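At mRpS21, a small subunit gene on 3R that shares a divergent promoter with Droj2, replicate 1 had a summit upstream of the start, at -179 bp, with a signal of 138.1 and rank 4001, inside its strongest 6496 peaks. The nearest summit of replicate 2 lay 2997 bp away (rank 24792), that of the pooled list 6697 bp away and that of the IDR list 14483 bp away. The gene was chosen after its values were seen. Of the members with a pooled peak outside the IDR list, 8 had a summit in both replicates, and the distance between those summits varied. At mRpL19, which has no divergent coding partner, they lay at -60 bp in replicate 1 and -59 bp in replicate 2. At mRpL28 the highest lay at -129 bp in both (ranks 19299 and 17813), and at mRpL32 at -145 and -142 bp. At mRpL51, in contrast, they lay at 128 and -117 bp, and at mRpL54 at -6 and -109 bp.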
